A study of Mus musculus with 11 samples.

Results

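Igf1r, Insr, Igf2r, Irs1, Irs2, Pik3r1 and Akt1 encode the receptors for insulin-like growth factors (IGFs) and insulin and the proteins that act directly below them. These 7 genes were taken by name from the 3 deposited count tables. All 7 are listed in each table, among 16576 distinct gene IDs over the tables. The study sequenced polyA RNA from stromal cells of mouse bone marrow after flow sorting, with 11 samples in 4 groups, and asked what the IGF1 receptor does in these cells after birth. The adult group (3 samples, wild type) was sorted on the surface proteins PDGFRa and CD51. The perinatal wild-type cells were sorted on PDGFRa and either for the surface protein Sca1 (3 samples) or against it (2 samples). The Igf1r knockout group (3 samples) was sorted on PDGFRa and Sca1 and is perinatal by the series' design text, while its sample labels give no age. By their titles the knockouts carried Cre and the Sca1-sorted wild-type samples did not, so an effect of Cre and of the deletion cannot be told apart. The promoter driving Cre, the deleted exons and whether samples came from separate animals were not given in the sources used here. All p-values therefore set a group difference against how far samples of a group lay apart, and part of that spread may be technical.

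IGF1R and INSR are related receptor tyrosine kinases at the cell surface: IGF1R binds IGF1 and IGF2, INSR binds insulin and, in 1 of its splice forms, IGF2. IGF2R is a different protein, the cation-independent mannose 6-phosphate receptor, which carries lysosomal enzymes and takes IGF2 up for breakdown. Activated IGF1R and INSR phosphorylate the docking proteins IRS1 and IRS2, these recruit phosphoinositide 3-kinase (PI3K) through regulatory subunits such as the product of Pik3r1, and the lipid that PI3K makes brings the kinase AKT1 to the membrane. In bone, IGF signalling is known for its part in the growth and differentiation of stromal and bone-forming cells.

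Library totals ran from 13412316 to 23782217 counts, so the limit of 3 counts that a count of 0 allows was 0.126 to 0.224 CPM, the count scaled to a fixed library total. Labelled Sca1-positive libraries 2 and 3 stand in all 3 tables with the same counts for 97.9% to 100% of shared genes, so the comparisons share controls. The labels name 1 sample for the replicate 1 column of both the age and the knockout table, but only 1.72% of the counts in these columns were equal. They are treated here as different libraries, and which of them is that sample was not settled. Ly6a, the gene for Sca1, went against the labels: it had 239 and 145 counts in labelled Sca1-positive libraries 2 and 3, and 10159 and 9112 in the labelled Sca1-negative libraries. Control 1 of the knockout table had 8624 Ly6a counts, and the knockouts 17051, 12936 and 22125, while the age table does not list the gene. Results of the knockout and age tables are therefore also given against replicate 1 alone, which the Sca1 table does not hold. Of the markers of the sort itself, the 8 genes of the stromal identity list summed to 49588 to 64299 CPM in the perinatal libraries of the age table and to 3259 to 4575 CPM in the adult libraries. The 13 macrophage and monocyte markers summed to 30.2 to 40.0 CPM in those perinatal libraries and to 23169 to 25710 CPM in the adult ones, with Mpeg1 at 0 in perinatal library 1.

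On mm10, with GENCODE M21 gene bounds, Igf1r lies at chr7:67952827-68233668 on the plus strand. The other 6 genes are on the minus strand: Insr at chr8:3122061-3279617, Igf2r at chr17:12682406-12769664, Irs1 at chr1:82233101-82291416, Irs2 at chr8:10984681-11008458, Pik3r1 at chr13:101680563-101768217 and Akt1 at chr12:112653821-112674884. Their longest annotated transcripts ran from 2690 bases for Akt1 to 11409 bases for Igf1r. Akt1 and Irs2 transcripts held the most G and C (59.7% and 56.6%), and Pik3r1 the least (44.9%).

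The 250 bases before the RefSeq transcription start (build GRCm38.p6) were read for the 6 genes with an entry; Insr had none. The palindrome CACGTG, known as an E-box that basic helix-loop-helix factors bind, was in the windows of Igf2r, Irs1 and Irs2, and in 6.02% of all 32851 such windows. With its GTCACGTG flank, searched on both strands and overlapping the first motif, it was in the same 3 windows and in 1.85% of all windows. The RefSeq start of Irs2 lies well upstream of its GENCODE bound (window from 11008930, bound at 11008458). Its matches therefore depend on the start used. The 3 windows are shown because both docking-protein genes and Igf2r share these letters, while Irs1 and Irs2 differed in opposite directions between adult and perinatal libraries and Igf2r stood with Irs2. All are on the minus strand, written 5′ to 3′, with CACGTG in capitals.
Irs1, chr1:82291440-82291689: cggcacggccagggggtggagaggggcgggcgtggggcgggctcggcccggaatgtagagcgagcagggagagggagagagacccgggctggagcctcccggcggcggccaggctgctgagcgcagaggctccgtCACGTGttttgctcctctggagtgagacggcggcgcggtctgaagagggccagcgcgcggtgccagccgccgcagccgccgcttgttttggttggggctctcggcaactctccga
Irs2, chr8:11008930-11009179: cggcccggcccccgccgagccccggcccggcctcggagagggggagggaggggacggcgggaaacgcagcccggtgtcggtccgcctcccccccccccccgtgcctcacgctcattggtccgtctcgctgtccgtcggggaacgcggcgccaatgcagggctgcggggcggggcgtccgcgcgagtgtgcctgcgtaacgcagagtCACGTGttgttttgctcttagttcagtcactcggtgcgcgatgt
Igf2r, chr17:12769707-12769956: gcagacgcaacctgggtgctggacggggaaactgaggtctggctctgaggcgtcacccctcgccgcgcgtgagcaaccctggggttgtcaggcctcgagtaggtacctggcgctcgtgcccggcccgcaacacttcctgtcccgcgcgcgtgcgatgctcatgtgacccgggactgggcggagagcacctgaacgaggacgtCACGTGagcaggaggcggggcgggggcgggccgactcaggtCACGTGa
The letters TTGTTTTG, as found in insulin response elements, were in the Irs1 and Irs2 windows and in 2.21% of all windows, searched on both strands. The FoxO motif TGTTTAC was in 1 of the 2 Akt1 windows, in no other window of these genes, and in 3.17% of all windows. These matches are descriptions of the letters and not of bound sites.

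Deletion of Igf1r was visible in its own counts, and the other receptor genes stood higher in the knockout libraries without passing the test. Igf1r was at 10.6% to 26.8% of the control mean. Insr, Igf2r and Pik3r1 had higher mean levels in knockouts, while Irs1, Irs2 and Akt1 had lower ones. Differences were fitted with edgeR's quasi-likelihood test over all genes of a table and called at a Benjamini-Hochberg adjusted p under 0.05. By that test 0 of the 7 genes were called, and 4 of them had an unadjusted p under 0.05, which 21.8% of all genes had. In all, 5 of 13590 genes tested (0.0368%) were called, all lower in knockouts: the haemoglobin genes Hba-a1, Hba-a2, Hbb-bt and Hbb-bs, and Msmp, named after their values were seen. DESeq2 on the same counts called 967 genes (7.12%), with Igf1r among them and none of the other 6.

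Igf1r had 599, 548 and 444 counts in controls 1, 2 and 3, which is 29.5, 31.7 and 30.7 CPM. Knockouts 1, 2 and 3 had 182, 80 and 77 counts, which is 8.2, 4.22 and 3.24 CPM. The controls lay close together, every knockout lay well below them, and knockout 1 kept the most signal. Igf1r was 5.84-fold lower in knockouts (log2 fold change −2.55 ± 0.34 SE, n = 3 and 3), at rank 11 of all genes by p, with an edgeR adjusted p of 0.0816. The DESeq2 adjusted p was 3.29e-09, and the authors' deposited table gives −2.55 with an adjusted p of 7.51e-09. With 1 library left out at a time, the edgeR adjusted p ran from 0.0176, without knockout 1, to 0.424. It was 0.0279 without control 1. Against control 1 alone, the control with high Ly6a, the log2 fold change was −2.59. The spread in that fit comes from the knockouts only, so no adjusted p is given for it. In the same fit the log2 differences of the other genes were 1.10 for Insr, 1.03 for Igf2r, 0.66 for Pik3r1, −0.37 for Irs1, −0.92 for Irs2 and −1.39 for Akt1.

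Insr, the insulin receptor gene, was at 7.79, 12.1 and 10.5 CPM in controls 1 to 3 and at 12.1, 16.2 and 23.4 CPM in knockouts 1 to 3. Knockout 1 was level with control 2 to the digits printed, and the other knockouts lay above all controls. The fitted difference was 0.83 ± 0.33 SE (log2), with an edgeR adjusted p of 0.21. Igf2r was at 609.8, 528.0 and 546.6 CPM in controls and at 613.8, 847.0 and 2326.5 CPM in knockouts. Knockout 3 stood far above the rest and knockout 1 stood just above control 1. The fitted log2 difference of Igf2r was 1.24 ± 0.51 SE (edgeR adjusted p 0.219), and it was 0.36 without knockout 3.

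Irs1 was at 17.9, 18.5 and 18.1 CPM in controls and at 16.9, 15.6 and 11.0 CPM in knockouts. All knockouts lay below the narrow range of the controls, with a log2 difference of −0.31 ± 0.23 SE (edgeR adjusted p 0.417). Irs2 was at 100.5, 55.0 and 69.4 CPM in controls and at 88.1, 47.1 and 34.4 CPM in knockouts. The Irs2 ranges overlapped, and the log2 difference was −0.42 ± 0.38 SE (edgeR adjusted p 0.489).

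Pik3r1, whose product p85 alpha couples IRS proteins to the PI3K catalytic subunit, was at 38.2, 40.7 and 41.8 CPM in controls and at 54.4, 59.3 and 74.6 CPM in knockouts. Its groups did not overlap and the controls differed little, with a log2 difference of 0.68 ± 0.24 SE (edgeR adjusted p 0.184). Akt1 was at 308.6, 169.6 and 219.9 CPM in controls and at 228.0, 119.1 and 34.6 CPM in knockouts. Knockout 1 lay above 2 controls and knockout 3 lay far below all libraries, with a log2 difference of −0.90 ± 0.57 SE (edgeR adjusted p 0.34). Groups of 5 of the 7 genes did not overlap in CPM, against 27.9% of all genes tested. Without knockout 1, edgeR called Igf1r lower and Insr (adjusted p 0.0387), Igf2r (adjusted p 0.0404) and Pik3r1 (adjusted p 0.0367) higher, in a fit that called 1532 genes higher and 1471 lower (21.5%). Without knockout 3 the log2 difference was 0.48 for Insr and −0.47 for Akt1. Without control 1 the counts called were 95 higher and 211 lower (2.19%), and without control 2, control 3, knockout 2 or knockout 3 no gene was called.

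**Figure D1:**
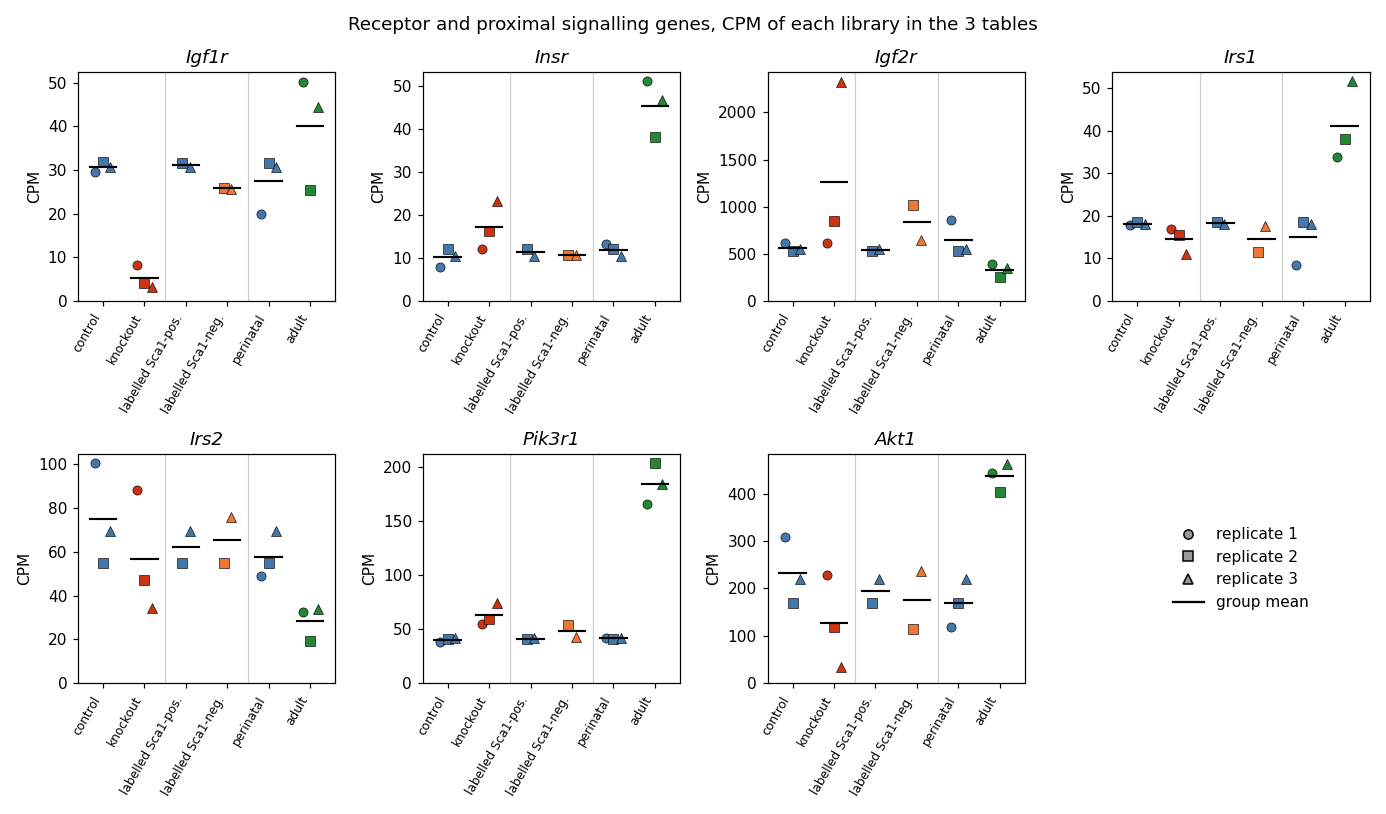
CPM of the 7 genes (one panel each, linear axis from 0) in every library of the 3 tables, with markers for replicates 1 to 3, a line at the group mean and grey lines between tables. Igf1r sits at 3.24 to 8.2 CPM in the knockouts against 29.5 to 31.7 in the controls, and Pik3r1 at 166.4 to 203.9 CPM in adult libraries against 40.6 to 42.0 in perinatal ones.

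The spread among knockouts moved with base composition. Tested genes were split into 4 bins of equal size by the GC share of the longest transcript. In the bin with the highest share (54.5% to 75.9%), the median log2 deviation from the gene's mean was 0.24, −0.33 and −0.77 in knockouts 1 to 3, and 0.58, 0.14 and 0.23 in controls 1 to 3. In the lowest bin (31.0% to 45.0%) it was −0.16, 0.26 and 0.52 in knockouts, and −0.41, −0.06 and −0.14 in controls. Akt1 and Irs2, in the highest bin, were lowest in knockout 3, and Pik3r1, in the lowest bin, was highest there. With each library's GC trend as an offset, an alternative chosen after seeing the data, the log2 difference of Akt1 was −0.35 in place of −0.90. Under it Irs2 turned from −0.42 to 0.09, Pik3r1 went from 0.68 to 0.38 and Insr from 0.83 to 0.62. Igf1r, at −2.58, and Igf2r, at 1.39, differed at least as much as without the offset, and no gene of the 7 was called, beside 0.0221% of all genes. Igf2r has 51.2% GC and was highest in knockout 3. The median of its bin (49.8% to 54.5%) was −0.25 in that library.

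**Figure D2:**
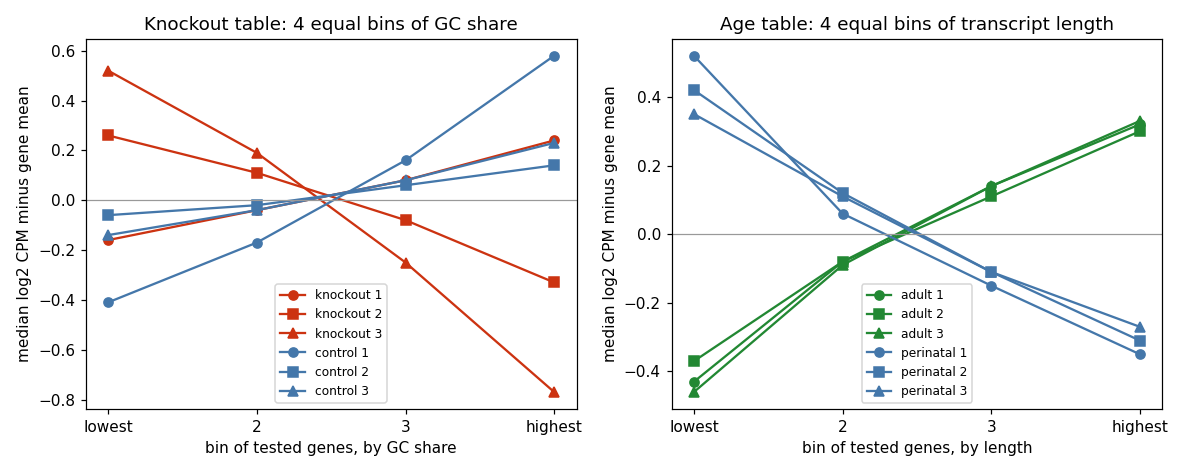
Median log2 CPM minus the gene's mean over the table's libraries, for 4 equal bins of tested genes by GC share in the knockout table (left) and by transcript length in the age table (right), one line per library. Knockout 3 runs from 0.52 in the lowest to −0.77 in the highest GC bin, and the adult libraries reach 0.30 to 0.33 in the longest bin where perinatal ones are at −0.35 to −0.27.

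Around these genes, 61 further genes of the pathway in 5 lists were followed, and 55 could be tested in the knockout table. By edgeR 0 were called in either direction, beside 0.0368% of all genes. The median log2 fold change of the 55 was −0.12 beside −0.03 over all genes. DESeq2 called Pik3r5 (2.09), Pik3c2a (1.23) and Gsk3b (1.21) higher in knockouts, named here as its only calls in the lists. That is 3 genes of the lists, beside 7.12% of all genes called by DESeq2. Crk, the most abundant of the docking and adaptor genes, was at 134.5 ± 31.3 CPM in knockouts and 100.3 ± 12.9 CPM in controls (SD, n = 3 each), with an edgeR adjusted p of 0.302. Akt2, the AKT isoform best known from insulin-driven glucose uptake, was at 95.3 ± 50.0 and 169.0 ± 23.9 CPM (edgeR adjusted p 0.224), and Pik3r2, a further PI3K regulatory subunit, at 44.1 ± 39.5 and 88.8 ± 36.3 CPM (edgeR adjusted p 0.329). Nedd4, a ubiquitin ligase among the brakes, was at 853.1 ± 99.6 and 799.2 ± 163.6 CPM, and Rps6 at 519.4 ± 134.6 and 535.8 ± 86.8 CPM. The Rps6 counts may hold reads of near-identical copies, which was not tested. Markers of other cells differed among the controls themselves: the 10 cartilage markers summed to 5578 and 6706 CPM in controls 2 and 3, to 448.0 CPM in control 1 and to 227.6 to 427.2 CPM in knockouts. The 9 osteoblast and osteocyte markers summed to 6459 and 5928 CPM in controls 2 and 3, to 98.4 CPM in control 1 and to 131.5 to 295.0 CPM in knockouts. The 10 fibroblast progenitor markers summed to 2163 and 2839 CPM in controls 2 and 3, to 10508 CPM in control 1 and to 8471 to 10080 CPM in knockouts. The part of these markers in the values of the 7 genes was not tested.

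By label of the Sca1 sort, the 7 genes lay close together. By edgeR 0 of the 7 were called, where 597 of 13529 genes (4.41%) were called. Igf2r alone had an unadjusted p under 0.05, as did 18.9% of all genes, and DESeq2 called 0 of the 7 and 7.58% of all genes. The log2 differences, labelled Sca1-negative minus labelled Sca1-positive, lay between −0.30 for Irs1 and 0.68 for Igf2r. With n = 2 and 2, and with Ly6a against the labels, the direction is given by label only.

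Igf1r was at 25.8 and 25.7 CPM in labelled Sca1-negative libraries 2 and 3 and at 31.6 and 30.7 CPM in labelled Sca1-positive libraries 2 and 3. Its replicates were close and the groups did not overlap, yet the log2 difference of −0.24 ± 0.17 SE had an edgeR adjusted p of 0.524. Insr was at 10.6 and 10.7 against 12.1 and 10.5 CPM, a log2 difference of −0.05 ± 0.22 SE (edgeR adjusted p 0.924). Igf2r was at 1022.3 and 649.3 CPM in the labelled Sca1-negative libraries and at 527.8 and 546.3 CPM in the labelled Sca1-positive ones, so both of the former were higher and library 2 by far the highest. Its log2 difference was 0.68 ± 0.27 SE, with an edgeR adjusted p of 0.24.

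Irs1 was at 11.6 and 17.6 CPM in labelled Sca1-negative libraries and at 18.5 and 18.1 CPM in labelled Sca1-positive ones (log2 difference −0.30 ± 0.25 SE, edgeR adjusted p 0.574). Irs2 was at 54.8 and 75.8 against 55.0 and 69.3 CPM, so its 2 groups covered the same range (log2 difference 0.10 ± 0.23 SE, edgeR adjusted p 0.86). Pik3r1 was at 53.8 and 42.9 against 40.6 and 41.8 CPM, with the higher value again in labelled Sca1-negative library 2 (log2 difference 0.27 ± 0.20 SE, edgeR adjusted p 0.54). Akt1 was at 115.1 and 237.6 against 169.5 and 219.8 CPM, so the labelled Sca1-negative libraries enclosed the others (log2 difference −0.12 ± 0.34 SE, edgeR adjusted p 0.886). The groups of Igf1r, Igf2r, Irs1 and Pik3r1 did not overlap, that is 4 of 7, against 49.8% of all genes tested.

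The 2 labelled Sca1-negative libraries lay apart in all of these genes but Igf1r and Insr. With n = 2 it cannot be told which of them is the unusual library. In labelled Sca1-negative library 2 the bin of genes with the highest GC share had a median log2 deviation of −0.28. The other libraries were at 0.03 to 0.14 in that bin, and the part of GC share was not tested. With library 2 as the only labelled Sca1-negative library, so that its spread is assumed to equal that of the other group, edgeR called Igf2r (log2 0.99, adjusted p 3.76e-05) and Pik3r1 (0.45, adjusted p 0.0213) higher and Irs1 (−0.59, adjusted p 0.0318) and Akt1 (−0.69, adjusted p 0.00724) lower, in a fit that called 2268 genes higher and 2567 lower (34.7%). With library 3 as the only one, none of the 7 was called, Akt1 was at 0.29 and Igf2r at 0.28, and 1110 genes were called higher and 1146 lower (16.2%). Without labelled Sca1-positive library 2, 143 genes were called higher and 348 lower, against 220 and 377 with all libraries. Of the pathway lists 0 of 56 genes tested were called by edgeR, beside 4.41% of all genes. DESeq2 called Pik3r5 (2.37) alone in the lists, beside 7.58% of all genes. The cartilage markers summed to 311.2 and 409.4 CPM in labelled Sca1-negative against 5576 and 6702 CPM in labelled Sca1-positive libraries. The osteoblast and osteocyte markers summed to 164.3 and 108.4 against 6457 and 5924 CPM, and the fibroblast progenitor markers to 9929 and 10892 against 2162 and 2838 CPM. The part of these markers was not tested.

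**Figure D3:**
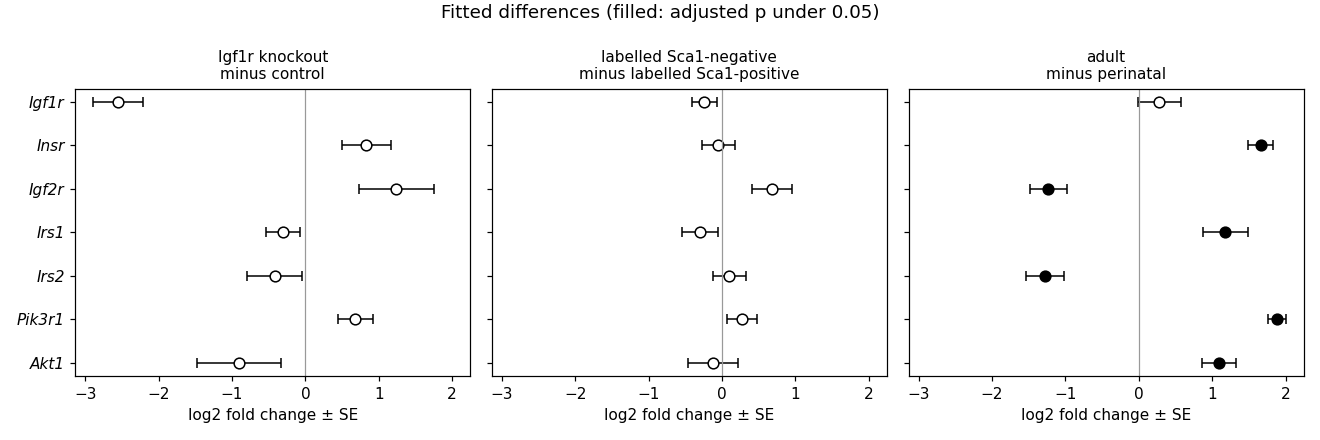
Fitted log2 fold changes with SE for the 7 genes in the 3 comparisons on a shared axis, filled where the edgeR adjusted p was under 0.05. No gene is filled in the knockout or the Sca1 comparison, and 6 of 7 are filled in the age comparison, where Igf1r (0.28) is not.

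Adult and perinatal libraries differed in 6 of the 7 genes. Insr, Irs1, Pik3r1 and Akt1 were higher in adult libraries by 2.13-fold to 3.69-fold, Igf2r and Irs2 were lower by 2.35-fold and 2.43-fold, and Igf1r was not called. Over all genes, 10610 of 13757 genes (77.1%) were called, 37.4% higher and 39.7% lower, so 6 called of 7 is near the share of all genes. The same holds for the 6 of 7 genes whose groups did not overlap in CPM, against 81.0% of all genes. Age and sort differ together here, and the macrophage and stromal marker sums given above differ with them. Cartilage markers summed to 398.4, 5574 and 6700 CPM in perinatal libraries 1 to 3 and to 51.8 to 86.6 CPM in adult ones. Osteoblast and osteocyte markers summed to 355.9, 6456 and 5923 against 1392 to 1790 CPM. The 8 listed fibroblast progenitor markers summed to 7799, 2134.5 and 2817 against 366.4 to 389.1 CPM. Erythroid markers summed to 771.5, 1299.8 and 1664 against 0 to 0.0589 CPM. The part of these markers was not tested. In bulk libraries fewer cells of a type and less RNA per cell cannot be told apart.

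Among the receptors, Igf1r was at 50.1, 25.4 and 44.4 CPM in adult libraries 1 to 3 and at 20.0, 31.6 and 30.7 CPM in perinatal libraries 1 to 3. Adult library 2 lay between the perinatal values and the groups overlapped, with a log2 difference of 0.28 ± 0.29 SE (edgeR adjusted p 0.412). Insr was at 51.2, 38.1 and 46.7 CPM in adult and at 13.2, 12.1 and 10.5 CPM in perinatal libraries. Every adult library was far above every perinatal one, and Insr rose 3.16-fold (log2 1.66 ± 0.17 SE, n = 3 and 3, edgeR adjusted p 7.16e-05). Igf2r was at 388.3, 253.8 and 344.2 CPM in adult and at 858.2, 527.7 and 546.1 CPM in perinatal libraries. All adult values lay below all perinatal ones, of which perinatal 1 was the highest, and Igf2r fell by 1.23 on the log2 scale (SE 0.25, edgeR adjusted p 0.00276).

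The genes of the docking proteins went opposite ways. Irs1 was at 33.8, 38.1 and 51.7 CPM in adult and at 8.5, 18.5 and 18.1 CPM in perinatal libraries, and rose by 1.18 ± 0.31 SE on the log2 scale (edgeR adjusted p 0.00979). Irs2 was at 32.7, 19.3 and 33.8 CPM in adult and at 48.9, 54.9 and 69.3 CPM in perinatal libraries, and fell by 1.28 on the log2 scale (SE 0.26, edgeR adjusted p 0.00238). Neither pair of groups overlapped: adult libraries were high for Irs1 and low for Irs2.

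Below the receptors, Pik3r1 was at 166.4, 203.9 and 184.3 CPM in adult and at 42.0, 40.6 and 41.8 CPM in perinatal libraries. It had the tightest perinatal values of the 7 genes in proportion to its level and the largest fold, 3.69 (log2 1.88 ± 0.12 SE, edgeR adjusted p 6.46e-06). Akt1 was at 443.2, 403.5 and 461.7 CPM in adult and at 119.4, 169.5 and 219.7 CPM in perinatal libraries, and rose by 1.09 ± 0.23 SE on the log2 scale (edgeR adjusted p 0.00307). The lowest adult value of Akt1 was above the highest perinatal one. The authors' deposited table, which gives perinatal minus adult, has the same signs once turned: −1.70 for Insr, 1.20 for Igf2r, −1.23 for Irs1, 1.24 for Irs2, −1.92 for Pik3r1, −1.13 for Akt1 and −0.32 for Igf1r. Against perinatal library 1 alone the same 6 genes were called, beside 74.4% of all genes. The spread in that fit comes from the adult libraries alone and the lone library is assumed to vary like them, so these calls are no independent support. The log2 differences were then 1.53 for Insr, −1.63 for Igf2r, 2.03 for Irs1, −1.02 for Irs2, 1.89 for Pik3r1, 1.62 for Akt1 and 0.75 for Igf1r. Without perinatal library 1, Irs1 was at 0.91 and Igf2r at −0.96, both called.

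Transcript length moved with the groups in this table. In the longest of 4 equal bins of genes, from 4818 bases, the median log2 deviation was 0.30 to 0.33 in adult and −0.35 to −0.27 in perinatal libraries. Apart from Akt1, all of the 7 genes fall in that bin. With GC and length trends of each library as offsets, an alternative chosen after seeing the data, the log2 difference of Igf1r was −0.43 (edgeR adjusted p 0.145) and that of Irs1 0.58 (edgeR adjusted p 0.0939), which is not called, while 77.0% of all genes were. Insr, at 1.01, and Pik3r1, at 1.25, remained called with smaller values, Akt1 was at 1.22, and Igf2r, at −1.84, and Irs2, at −1.87, had larger falls. Scaling by library totals moved the median of all genes from −0.06 to 0.21, and upper-quartile scaling moved it to −0.19, without a change of sign in any of the 7 genes.

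Deposited TPM values, which are scaled by transcript length and library total, allow levels of different genes to be compared as far as those lengths hold. The length behind a gene's TPM was not the same in every library. Perinatal libraries 2 and 3 had 12.1 and 10.5 CPM of Insr but 1.69 and 2.67 TPM. Igf1r had 31.6 and 30.7 CPM and 9.24 and 9.16 TPM there. Orders and shares by TPM therefore carry these lengths as well. In adult libraries Akt1 led with 269.8, 220.8 and 285.6 TPM. Igf2r (67.9, 40.2 and 62.2 TPM) and Pik3r1 (42.0, 48.3 and 47.8 TPM) came next and changed places between libraries. Igf1r (7.90 to 16.6 TPM), Irs2 (6.10 to 11.7 TPM), Insr (6.31 to 9.75 TPM) and Irs1 (5.87 to 9.19 TPM) overlapped one another, in that order of their highest value.
In perinatal libraries Igf2r (75.1 to 106.5 TPM) and Akt1 (62.4 to 126.5 TPM) overlapped at the top. Irs2 followed alone at 20.7 to 29.6 TPM, then Igf1r (5.34 to 9.24 TPM) and Pik3r1 (7.34 to 8.58 TPM), which overlapped. Insr (1.61 to 2.67 TPM) and Irs1 (1.11 to 2.74 TPM) were lowest and overlapped. Pik3r1 and Irs2 thus stood in opposite order in adult and perinatal libraries.

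Shares of related genes within a library do not depend on library scaling. By TPM they do depend on the lengths used, which differed between libraries. Irs2 made up 65.9%, 49.6% and 56.1% of the summed TPM of Irs1 and Irs2 in adult libraries, and 94.9%, 89.4% and 91.5% in perinatal ones. Igf1r made up 64.7%, 55.6% and 60.7% of Igf1r plus Insr in adult libraries and 76.8%, 84.5% and 77.5% in perinatal ones. In both cases every adult share was below every perinatal one. By counts Igf1r was below Insr in every adult library (865, 432 and 596 Igf1r counts to 884, 646 and 627 Insr counts), the reverse of the TPM order, while the longest annotated Igf1r transcript is the longer one (11409 against 9355 bases). Which transcript lengths the authors used for TPM was not stated in the labels or headers, and the Igf1r majority in adult libraries rests on them. Akt1 made up 71.6% to 74.2% of the 3 AKT genes in adult and 57.1% to 60.6% in perinatal libraries. Pik3r1 made up 42.8% to 50.7% of Pik3r1, Pik3r2 and Pik3r3 in adult and 13.3% to 14.1% in perinatal libraries. The values are per gene, so single transcript forms of Pik3r1 were not measured. By counts the ratio of Pik3r1 to Pik3r2 was 1.69, 2.96 and 1.93 in adult libraries. It was 0.619, 0.642 and 0.576 in perinatal ones. The part of the lengths in the TPM shares was not tested. In the labelled Sca1-negative libraries Irs2 held 94.2% and 92.5%, Igf1r 84.6% and 80.3%, Akt1 60.8% and 61.8% and Pik3r1 18.3% and 11.5%.

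As log2 ratios of counts, adult minus perinatal, the differences were 2.56 for Irs1 to Irs2, −1.41 for Igf1r to Insr, 1.19 for Akt1 to Akt2 and 1.80 for Pik3r1 to Pik3r2. None of these 4 ratios overlapped between the groups, and each had a two-sided exact permutation p of 0.1, the smallest that 3 against 3 allow, adjusted to 0.24 over the 12 ratios of the 3 tables. The design therefore cannot reach 0.05 for a single ratio. In the knockout table Igf1r to Insr differed by −3.41 without overlap (exact permutation p 0.1, adjusted 0.24). Igf1r is the deleted gene in that table, so the direction of this ratio is no separate result. Irs1 to Irs2 differed by 0.13 there, Akt1 to Akt2 by −0.26 and Pik3r1 to Pik3r2 by 2.04, and all 3 overlapped. Knockout 3 was far from the others in the last of these ratios, with 1775 Pik3r1 counts to 260 Pik3r2 counts, and in Akt1 to Akt2, with 824 to 1312 counts. In the Sca1 table the 4 differences lay between −0.42 and 0.18, where 2 against 2 cannot go below an exact permutation p of 0.333.

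**Figure D4:**
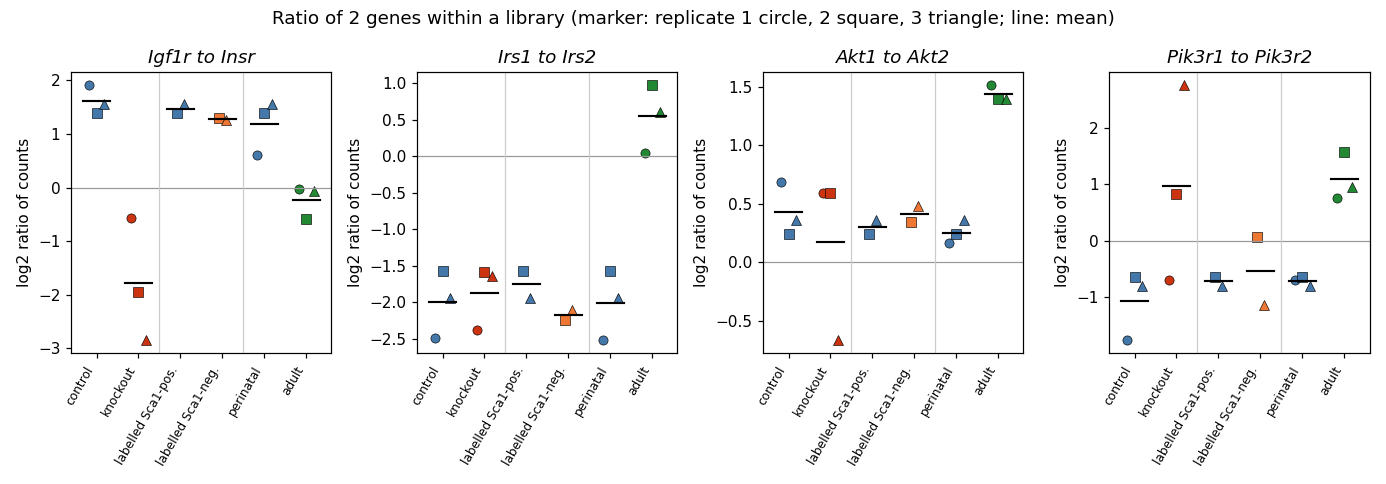
Log2 ratio of the counts of 2 related genes in each library (one panel per ratio), with a line at the group mean and grey lines between tables. Irs1 to Irs2 averages 0.55 in adult and −2.01 in perinatal libraries. Knockout libraries, in which Igf1r is the deleted gene, average −1.79 for Igf1r to Insr against 1.62 in controls.

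Further along the pathway, 59 of the 61 list genes were tested in the age table, with 35 called higher and 13 lower in adult libraries, to be read against the 37.4% higher and 39.7% lower over all genes. Pik3cg and Pik3ap1 passed the filter only through the adult libraries, every perinatal one lying under its cutoff of 0.629 CPM, so their direction was fixed by the filter. Without them 33 of 57 were called higher and 13 lower. Their median log2 fold change was 0.86, and the macrophage marker sums above differ in the same direction. Of all genes, 12214 passed the filter through neither group alone, with 4605 called higher, 4479 lower and a median of 0.01. Of the 8 remaining genes of the PI3K list 7 were called higher and 0 lower. Pik3cd and Pik3cg, the catalytic subunits that blood cells are known for, rose from 3.34 ± 0.11 to 140.7 ± 20.6 CPM and from 0.192 ± 0.176 to 163.7 ± 19.4 CPM (SD, n = 3 each, log2 5.13 for Pik3cd). One perinatal library had 0 Pik3cg counts. Their part in the values of Pik3r1 was not tested.

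Among docking and adaptor genes 9 of 12 tested were called higher and 1 lower, beside 37.4% higher and 39.7% lower of all genes. Grb2, the adaptor that links receptors to RAS, rose from 39.1 ± 2.32 to 275.1 ± 2.67 CPM, and Ptpn11, the SHP2 phosphatase gene, from 42.5 ± 5.41 to 183.5 ± 2.97 CPM. Gab1, a docking protein, fell from 56.0 ± 9.16 to 21.4 ± 5.0 CPM. Of 7 AKT kinases and activators 4 were called higher and 0 lower, beside the same shares of all genes. Pdpk1, the kinase that phosphorylates AKT in its activation loop, was at 74.1 ± 2.86 against 23.4 ± 0.993 CPM. Rictor, of mTOR complex 2, was at 37.1 ± 3.90 against 8.35 ± 1.16 CPM.

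Of 16 brakes on the receptor and PI3K 7 were called higher and 6 lower, beside 37.4% higher and 39.7% lower of all genes. Inpp5d, the SHIP1 phosphatase gene known from blood cells, rose from 0.648 ± 0.0617 CPM, which is near the filter's cutoff, to 365.0 ± 40.7 CPM. Socs3 and Socs2, inhibitors of cytokine and growth hormone signalling, fell from 669.0 ± 21.6 to 54.8 ± 4.64 CPM and from 122.4 ± 18.1 to 10.3 ± 2.28 CPM. Of 14 AKT and mTORC1 effectors 6 were called higher and 6 lower, beside the same shares of all genes. Tsc1, an inhibitor of mTORC1, rose from 7.31 ± 0.212 to 63.5 ± 4.12 CPM and Gsk3a, a kinase that AKT inhibits, from 11.9 ± 2.0 to 91.7 ± 13.0 CPM. Eif4ebp1, a translation repressor that mTORC1 phosphorylates, fell from 205.8 ± 21.4 to 79.4 ± 7.41 CPM. Rps6 fell from 564.6 ± 49.6 to 21 ± 0.693 CPM, and the part of near-identical copies in its counts was not tested.

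**Figure D5:**
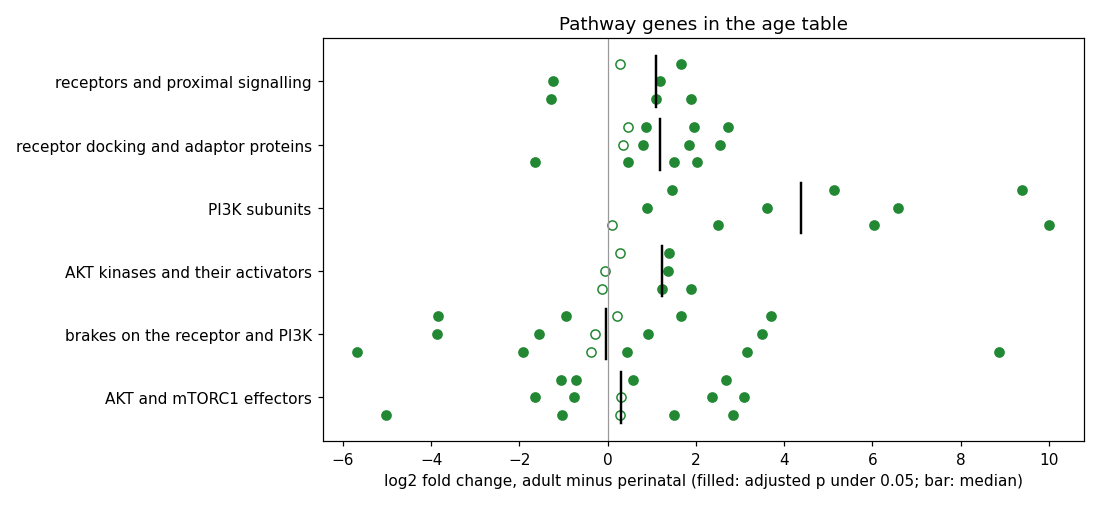
Log2 fold changes, adult minus perinatal, of the 7 genes and of the 5 pathway lists (one point per gene, filled where the edgeR adjusted p was under 0.05, bar at the median). The brakes have a median of −0.03 and the 7 genes 1.09. The bar of the PI3K list includes Pik3cg and Pik3ap1, which passed the filter only through adult libraries.

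Patterns over the 6 libraries of a table were compared by Pearson's r of log2 CPM, as a description over n = 6 libraries that share their group difference and their composition trends. In the age table Igf1r followed few genes, with 17 of 13757 at r of 0.95 or more and Zxda (0.981) and Pom121 (0.980) nearest. Pik3r1 had 3216 such genes and Insr 2751, and the 2 genes had r = 0.96 with each other. Akt1 had 1020, Igf2r 336, Irs2 326 and Irs1 298. The genes nearest to each were mt-Nd6 and Clec10a for Pik3r1, Hps1 and Wipf1 for Insr, Tle5 and Asb6 for Akt1, Reps1 and Lrrc8c for Igf2r, Amotl1 and Clcn2 for Irs2, and Gm21981 and H2bc6 for Irs1. In the knockout table Igf1r was nearest to Evpl (0.998) and Zfp467 (0.995), among 197 of 13590 genes at 0.95 or more. There Insr and Akt1 had r = −0.98, and Insr was nearest to Zc3h7a and Ggnbp2, Igf2r to Dyrk1a and Ankmy2, Irs1 to Eno1 and Ppan, Irs2 to Igfbp4 and Plod3, Pik3r1 to Mycbp2 and Zfp984, and Akt1 to Psmd3 and L3mbtl2.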

How the data were processed

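Per the file headers, the authors deposited raw counts per gene for every library in 3 tables, with TPM values in the age and Sca1 tables and log2 fold changes and adjusted p-values of their own comparisons. The knockout table's further per-library columns hold log2 values, which the authors' headers call TPM and which fall below 0 in 5 libraries, and they were not used. The submitters' processing notes name Trimmomatic 0.32, DESeq2 and build mm10. Aligner, counter, annotation and strand were not given in the sources used here. Of the per-sample columns, 0 were left unmapped.

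CPM were counts over library totals. Each table was fitted alone with edgeR 4.0.16 in R 4.3.3 (filterByExpr, TMM, robust quasi-likelihood, group term only). Tests were two-sided, with Benjamini-Hochberg adjustment over all genes tested. The fit was also run on simulated counts with the same spread setting for every gene and no GC or length trend. That check does not cover the trends and outlying libraries seen here. DESeq2 1.42.0, other scalings, no filter, a replicate block, left-out libraries and GC and length trends (lowess span 0.3, limma 3.58.1) were alternatives. All 7 genes passed the filter in each table. Ratios used exact permutation tests (SciPy 1.17.1). From each pathway list the text names up to 2 called genes per direction by adjusted p, otherwise the most abundant, and 1 gene so chosen is not reported here; likeness names the 2 genes of highest r, on log2 CPM with prior count 2. Genes and lists were chosen with earlier results of these data known. Floors cover counting error only, while SE and SD include the spread between libraries.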

Additional observations from a re-analysis of the deposited data

How the results depend on the processing

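Of 15 alternatives in the knockout and age tables and 12 in the Sca1 table, the following moved a value. In the knockout table DESeq2 called Igf1r (−2.55, adjusted p 3.29e-09) and 474 genes higher and 493 lower, the replicate block and control 1 alone left 0 genes called lower, and offsets for GC left 3 and for GC and length 2; Irs2 turned to 0.09 and 0.06 under these offsets. In the Sca1 table DESeq2 called 428 higher and 598 lower, the replicate block 577 and 792, GC offsets 375 higher, and GC and length offsets 445 and 594. In the age table GC and length offsets turned Igf1r to −0.43 and took Irs1 to 0.58 (adjusted p 0.0939), and the cause was not tested. Replicate numbers were not taken as pairing: correlations of same-numbered deviations were 0.19, 0.12 and 0.05 in the knockout table and −0.02, −0.02 and 0.19 in the age table, not all over 0.1. The Sca1 table has only 2 pairs, at 0.30 each, and there each library correlated best with its own number, a hint from the data and not the design. In all 3 tables the replicate block changed the call of none of the 7 genes.

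With 1 library left out at a time, the knockout table gave −2.96 to −2.33 for Igf1r, 0.48 to 1.07 for Insr, 0.36 to 1.59 for Igf2r, −0.38 to −0.18 for Irs1, −0.83 to −0.09 for Irs2, 0.48 to 0.82 for Pik3r1 and −1.56 to −0.47 for Akt1, with 0 to 1532 genes called higher and 0 to 1471 lower. Its log2 ratio differences ran from −0.12 to 0.38 for Irs1 to Irs2, from −0.47 to 0.16 for Akt1 to Akt2 and from 1.13 to 2.87 for Pik3r1 to Pik3r2. The Sca1 table gave −0.13 to 0.02 for Insr, 0.28 to 0.99 for Igf2r, −0.59 to −0.05 for Irs1, −0.12 to 0.30 for Irs2, 0.06 to 0.45 for Pik3r1 and −0.69 to 0.29 for Akt1, with 143 to 2268 genes called higher and 317 to 2567 lower, and its Pik3r1 to Pik3r2 difference ran from −0.43 to 0.79. In the age table no single library changed the call of any of the 7 genes. Depth limits none of the 7 genes, whose lowest count was 77, while 2 or 3 libraries a group limit every difference.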
